A study of Danio rerio with 6 samples.

Results

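Mature zebrafish oocytes were compared with the whole ovary they leave, to describe which transcripts the squeezed egg holds in excess of its organ and which are lower in it. The features compared were those with at least 1 FPKM (fragments per kilobase of a gene's transcript and scaled by library size) in 2 or more of the 4 libraries, leaving out features above 10000 FPKM in any of them. This kept 11791 of the 32253 features in the deposited table, while 20442 were under the minimum and 22 were above the upper limit. RNA sequencing had been done on adult wild-type fish of the TLAB strain, untreated as far as the labels say. The 4 libraries used here were 2 of whole ovary dissected from females and 2 of mature oocytes obtained by squeezing, and 2 libraries of whole testis served only as a further readout. Whether different fish gave the 2 libraries of each tissue, or how many were pooled, is not in the labels, so the p-values measure the spread between these libraries, which may be technical.

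A fish ovary holds oocytes of every stage, each enclosed by granulosa and theca cells within a vascularised stroma, and a squeezed egg is an ovulated oocyte that has shed its follicle. During growth the oocyte transcribes and stores mRNA, builds its coat and takes up yolk. Transcription then stops, and from meiotic maturation until the embryo activates its own genome the stored mRNA is controlled by poly(A) tail length, translation and decay. The ovary libraries therefore contain RNA of growing oocytes as well as of somatic cells, and in such bulk samples fewer cells of a type and less RNA per cell cannot be told apart.

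The oocyte and the ovary differed across much of the transcriptome. A feature was called when its limma Benjamini-Hochberg adjusted p was under 0.05 and its difference in mean log2(FPKM + 1), oocyte minus ovary, was at least 1 in size, which is a factor of 2. By this rule 6681 features (56.7%) were called, 3655 of them higher in the oocyte (31.0%) and 3026 lower (25.7%), and the 2 oocyte values lay wholly above or below the 2 ovary values for 10114 features (85.8%). Over all tested features the median difference was 0.21 and the median standard error (SE) was 0.23. A median difference this far from 0 depends on the scale: with median-of-ratios scaling it was 0.01 and the calls were 3073 higher and 3454 lower. Across features, the libraries of a tissue correlated at 0.965 on the log2 scale in ovary and in oocyte, against 0.605 to 0.685 between the tissues. The falls were more often deep than the rises. At a difference of 3 or more, a factor of 8, 185 features were higher and 481 lower in the oocyte, and at 4 or more the counts were 39 and 157. Features were also grouped by level, as log2 of the mean FPKM over the 4 libraries plus 1. Among the 352 features at a level of at least 8, 42.6% were called lower and 27.3% higher, whereas in the range from 6 to 8 the shares were 23.0% and 50.5%.

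**Figure D1:**
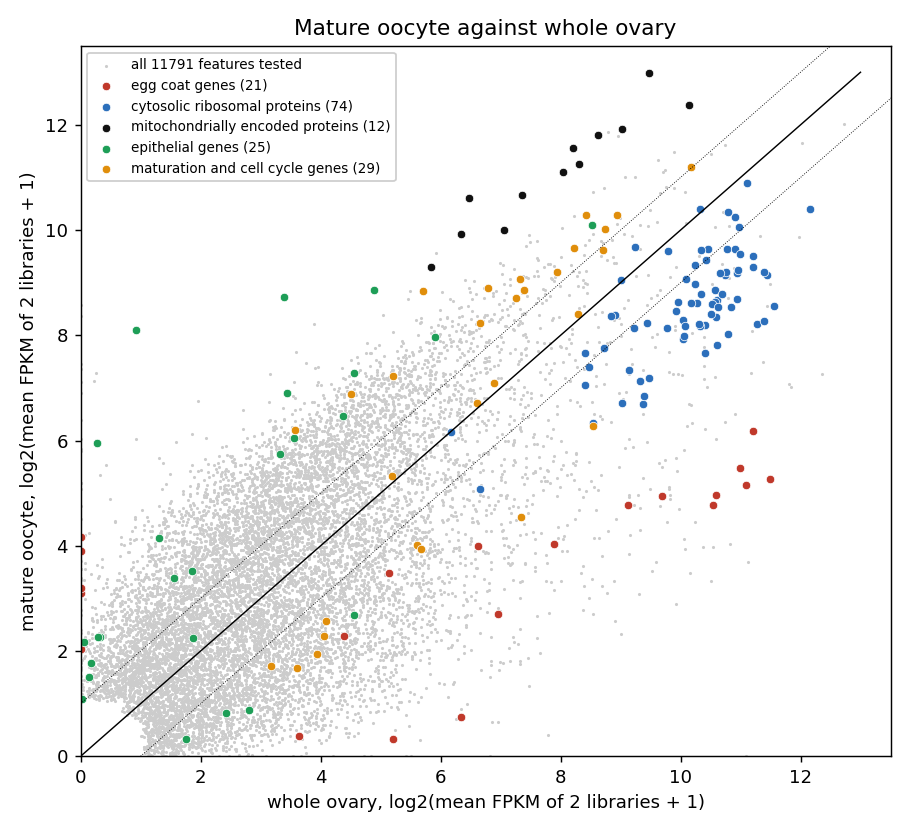
Level of each of the 11791 tested features in mature oocyte (vertical axis) and whole ovary (horizontal axis), both as log2 of the mean FPKM of 2 libraries plus 1; the solid line marks equal levels, the dotted lines a log2 difference of 1 either way, and coloured points are members of 5 gene lists. Most egg coat genes and ribosomal protein genes lie under the line and the 12 mitochondrially encoded genes lie above it.

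The deepest group fall was in the genes of the egg coat. Zona pellucida proteins form the chorion around the fish egg and are made by the growing oocyte. Of 21 zona pellucida genes tested, 16 were lower in the oocyte (76.2%, against 25.7% of all features) and 5 higher (23.8%, against 31.0%). The median difference of the list was -4.28, beside the median of 0.21 over all features. The summed FPKM of the list was 12303 and 16735 in ovary and 448 and 355 in oocyte. zp3a.1, a ZP3-type coat gene, was at 2225 and 3541 FPKM in ovary and at 44.7 and 30.5 in oocyte. Both oocyte values were far under both ovary values, the difference was -6.21 (SE 0.35, adjusted p = 0.000536), and the mean FPKM was 76.6-fold lower. zp3e was at 1819.9 and 2533 FPKM in ovary and at 37.5 and 31.4 in oocyte (difference -5.93, SE 0.28, adjusted p = 0.000445). The ZP2-like gene zp2l1 was at 1159.5 and 1826 in ovary and at 32.9 and 19.7 in oocyte (-5.78, SE 0.36, adjusted p = 0.000607). The smallest of the 16 falls was that of zp3d.1, at 32.7 and 35.8 in ovary and 11.3 and 9.12 in oocyte (-1.66). The 5 higher members, zp2.1, zp2.2, zp2.3, zp2.5 and zp2.6, are tandem ZP2 copies that were all listed at 0 in both ovary libraries; zp2.5, for example, was at 23 and 11 FPKM in the oocyte libraries. How reads shared between such copies were assigned is not given in the sources used here, so their rise is uncertain.

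Other transcripts that define growing oocytes separated from each other. ZAR1, an RNA-binding protein of the oocyte needed for the start of embryonic development in mice, was at 1102 and 1172 FPKM in ovary and at 11.3 and 9.06 in oocyte. Both oocyte values were far under both ovary values, with a difference of -6.67 (SE 0.22, adjusted p = 0.000337) and a 111-fold lower mean. Its relative ZAR1L was at 446 and 527 in ovary and 602 and 732 in oocyte and was not called (0.45, adjusted p = 0.213). npm2b, a nucleoplasmin that packages maternal chromatin, was at 243 and 244 FPKM in ovary and at 29.1 and 30.3 in oocyte (-2.99, SE 0.19, adjusted p = 0.000607). LHX8, a transcription factor of young oocytes, was at 34.8 and 43.2 in ovary and at 17.4 and 14.0 in oocyte (-1.26, adjusted p = 0.00453). Of the 8 genes in this list, 3 were lower (37.5%, against 25.7% of all features) and none was higher (against 31.0%). The median difference was -0.77, and 6 of the 8 differences were below 0. The other 5 genes were not called, among them the oocyte-secreted growth factor bmp15, at 57.4 and 52.7 in ovary and at 67.0 and 64.5 in oocyte, and the oocyte transcription factor figla, at 11.1 and 12.0 in ovary and at 9.31 and 6.52 in oocyte. Both are defining oocyte genes, and each was under 1 FPKM in both testis libraries. GDF9, another member not called, was at 18.5 and 15.4 in ovary and at 7.75 and 11.4 in oocyte.

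Large single falls outside these lists were chosen by size among called features with a gene name and values that did not overlap between the tissues. Further conditions on level and on listed zeros applied, and only some of these falls are given. ecm1a, an extracellular matrix protein gene, was at 179.8 and 260.3 FPKM in ovary and at 0.305 and 0.326 in oocyte, a difference of -7.37 (SE 0.24, adjusted p = 0.000337). Both oocyte values were under the minimum of 1 FPKM. A group of 3 gene copies for quinoid dihydropteridine reductase, the enzyme that recycles tetrahydrobiopterin, was lower. qdprb.4 was at 792 and 1161 in ovary and at 7.94 and 4.99 in oocyte (-7.04), and qdprb.3 and a QDPR copy differed by -6.14 and -6.47. These copies may share reads, so their separate values are uncertain. harbi2, named after the harbinger transposase, was at 463 and 562 in ovary and at 4.57 and 3.40 in oocyte (-6.69), and lpar2a, a lysophosphatidic acid receptor, was at 55.7 and 104 in ovary and at 1.14 and 0.568 in oocyte (-5.40). The microRNA gene mir22a-2 was at 121 and 103 in ovary and was listed at 0 in both oocyte libraries. Values listed at 0 need not mean absence, as described below, so this fall is uncertain.

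Transcripts of follicle cells were scarce even in the whole ovary. Of 32 granulosa and follicle cell genes, 24 did not reach the minimum. Of the 8 tested, 5 were called lower in the oocyte (62.5%, against 25.7% of all features) and none higher. Their median difference was -1.53, but genes that pass the minimum only through the ovary must differ in this direction, and with no filter the median over all 32 was -0.20. The list summed to 65.0 and 76.3 FPKM in ovary and to 15.7 and 15.3 in oocyte. It shares the keratins krt8 and krt18a.1 with the epithelial list below, where both are also counted as lower. The sum and the count of 5 therefore rest in part on keratins that are not particular to follicle cells. CYP19A1, the aromatase that makes oestradiol in granulosa cells, was at 4.65 and 11.5 FPKM in ovary and at 0.285 and 0.0471 in oocyte (-2.86, SE 0.41, adjusted p = 0.00225). The ovary libraries differed more than 2-fold for this gene, but both were above the oocyte libraries. The granulosa transcription factors wt1b and FOXL2 were low throughout. wt1b was at 1.80 and 1.63 in ovary and at 0.178 and 0.165 in oocyte (-1.21, adjusted p = 0.00165), and FOXL2 was at 1.42 and 1.43 in ovary and at 0.286 and 0.380 in oocyte, which was not called (-0.86). The gonadotropin receptors FSHR and lhcgr and the granulosa hormone amh were under 0.1 FPKM in all 4 libraries.

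Genes of steroid production were called at shares near those of all features. Of 9 tested theca and steroid genes, 3 were higher (33.3%, against 31.0%), 3 lower (33.3%, against 25.7%) and 3 not called; their median difference was 0.02, and it was -0.22 with median-of-ratios scaling and -0.32 with quantile normalization. SCARB1, a lipoprotein receptor that brings cholesterol into cells, was at 558 and 688 FPKM in ovary and at 35.1 and 25.1 in oocyte (-4.34, SE 0.26, adjusted p = 0.000593). hsd3b2, a hydroxysteroid dehydrogenase, was at 14.3 and 46.3 in ovary and at 2.11 and 1.1 in oocyte (-3.40, adjusted p = 0.00367). CYP11A1, the side-chain cleavage enzyme that starts steroid synthesis, went the other way: it was at 21.9 and 18.2 in ovary and at 78.8 and 145 in oocyte (2.37, SE 0.33, adjusted p = 0.00212). STARD3, which moves cholesterol between membranes, was at 7.08 and 5.46 in ovary and at 24.9 and 44.8 in oocyte (2.25, adjusted p = 0.00240). For these genes no oocyte value overlapped an ovary value, as was so for 85.8% of all tested features.

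Contractile genes went both ways. Of 13 smooth muscle and contractile genes tested, 6 were higher (46.2%, against 31.0% of all features) and 4 lower (30.8%, against 25.7%). The median difference was 0.77, and with no filter on low values it was -0.03. The larger falls were those of acta2 and a TAGLN copy. acta2, smooth muscle actin, was at 17.8 and 24.5 FPKM in ovary and at 0.485 and 0.227 in oocyte (-4.02, SE 0.26, adjusted p = 0.000607), and a TAGLN copy, the smooth muscle protein transgelin, was at 39.5 and 61.0 in ovary and at 1.45 and 0.893 in oocyte (-4.54). Among the higher members were tpm1 (2.22), a tropomyosin, a CNN3 copy (2.96), a calponin, and the receptor notch2 (2.41). Most genes of the other somatic lists did not reach the minimum. Of 33 vessel genes 4 were tested, with 1 higher and 1 lower, and cdh5, which marks endothelium, was under 0.1 FPKM in all 4 libraries. Of 58 white blood cell genes 10 were tested, with 2 higher and 2 lower, and ptprc, the pan-leukocyte gene, was under 0.1 FPKM throughout. Of 23 red blood cell genes 6 were tested, with 1 higher and 2 lower. Of 27 sperm and spermatid genes, a check for germ cells of the other sex, 5 were tested, with none higher and 1 lower. The connective tissue list had 14 of 39 members tested, with 1 higher and none lower, and a median of 0.13 that was -0.02 with median-of-ratios scaling. Its sum rested on thy1, a surface glycoprotein, whose values of 403 and 1498 in ovary and 4312 and 1442 in oocyte overlapped.

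Digestive enzymes marked 1 ovary library. The 37 digestive organ and liver genes summed to 21.9 FPKM in ovary replicate 1 and 265 in replicate 2, against 11 and 1.97 in oocyte. prss1, pancreatic trypsin, was at 11.2 and 76.9 in ovary and at 2.1 and 0.570 in oocyte (-3.81, adjusted p = 0.0124); this call was lost without oocyte replicate 1 (-4.30) and without oocyte replicate 2 (-3.32). Only 5 of the 37 were tested, and the part of other organs in the remaining ovary values was not tested. Ovary replicate 2 also held the higher sums of ribosomal protein and mitochondrial transcripts given below. Its sum over all features not above 10000 FPKM was higher as well, at 604757 against 468108 in replicate 1.

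Large sets of housekeeping transcripts were at lower FPKM in the mature oocyte. Ribosomal protein genes, which build the translation machinery, were the most abundant of them. Of 74 cytosolic ribosomal protein genes tested, 53 were lower (71.6%, against 25.7% of all features), none was higher and 21 were not called. For 71 of the 74 genes the difference was below 0, and the median over the list was -1.69. Their FPKM summed to 76138 and 126737 in ovary and to 43324 and 26972 in oocyte, so the tissues did not overlap although the replicates of each differed. RPL19 was at 1978 and 2947 in ovary and at 357 and 237 in oocyte (-3.05, SE 0.39, adjusted p = 0.00164). At the other end, RPS28 was at 491 and 713 in ovary and at 955 and 680.0 in oocyte and was not called (0.45). The count of called genes changed with the library left out: it was 10 without oocyte replicate 2, 31 without ovary replicate 2, 33 without oocyte replicate 1 and 51 without ovary replicate 1, while the median difference stayed between -2.04 and -1.35.

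Measured levels of mitochondrial transcripts divided by the genome that encodes them. The library kit selects RNA by its poly(A) tail, and what part tail length has in these levels was not tested. The mitochondrial genome codes for 13 proteins of the respiratory chain, and the other subunits of those complexes are encoded in the nucleus. The list of mitochondrially encoded genes was set up after values had been seen. So were those of mitochondrial ribosomal proteins, kinesins, septins, calpains, actins and tubulins, endoplasmic reticulum and splicing below. All 12 mitochondrially encoded genes tested were higher in the oocyte, against 31.0% of all features. Over these genes the median difference was 3.25, with a range from 2.23 to 4.13. Their summed FPKM was 3818 and 4474 in ovary and 37675 and 31138 in oocyte. MT-CO2, a cytochrome oxidase subunit, was at 488 and 548 in ovary and at 4197 and 3576 in oocyte (2.90, SE 0.36, adjusted p = 0.00148), and mt-nd4l, a subunit of complex I, was at 85.4 and 90.6 in ovary and at 1519 and 1600.0 in oocyte (4.13, SE 0.25, adjusted p = 0.000571). The thirteenth, mt-atp8, exceeded the upper limit and was not tested; it was at 1827 and 2197 in ovary and at 37709 and 29723 in oocyte. Without each library in turn, 11 or 12 of the 12 tested genes were called higher.

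The nuclear partners of these proteins were lower. Of 80 nuclear-encoded oxidative phosphorylation genes tested, 56 were lower (70.0%, against 25.7% of all features) and 3 higher (3.75%, against 31.0%). The median of the list was -1.86, and its summed FPKM was 19003 and 28538 in ovary and 9205 and 6735 in oocyte. NDUFA6, a complex I subunit, was at 138 and 248 in ovary and at 7.61 and 3.0 in oocyte (-4.99, SE 0.46, adjusted p = 0.000820). cox6c, a cytochrome oxidase subunit, was at 717 and 1405 in ovary and at 73.2 and 37.2 in oocyte (-4.24). An exception was ndufc2, also of complex I, at 103 and 113 in ovary and at 353 and 313 in oocyte (1.61, adjusted p = 0.00198). Of 73 mitochondrial ribosomal protein genes, 51 were lower (69.9%, against 25.7%) and 6 higher (8.22%, against 31.0%), with a median of -2.06. In this list, set up after values had been seen, mrpl42 was at 89.8 and 111 in ovary and at 2.49 and 1.71 in oocyte (-5.04).

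**Figure D2:**
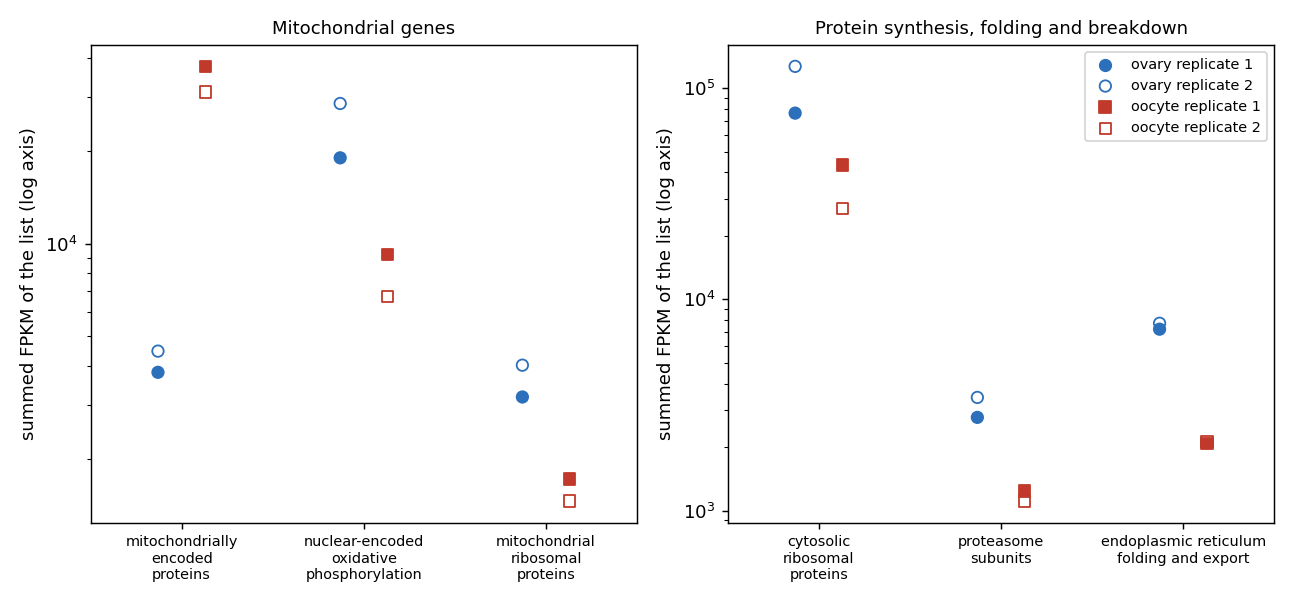
Summed FPKM of 6 gene lists in each of the 4 libraries, on log axes; circles are ovary and squares oocyte, filled for replicate 1 and open for replicate 2. The mitochondrially encoded list, without its member above 10000 FPKM, is higher in both oocyte libraries and the other 5 lists are lower in both.

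Protein breakdown, translation factors and the secretory pathway followed the ribosomal genes in part. Of 43 proteasome subunit genes tested, 29 were lower (67.4%, against 25.7% of all features) and 1 higher (2.33%, against 31.0%). The median was -1.69, and the higher gene, PSMB6, was listed at 0 in both ovary libraries. PSMA1, a subunit of the proteasome core, was at 336 and 552 FPKM in ovary and at 25.9 and 10.8 in oocyte (-4.60, SE 0.46, adjusted p = 0.000920). PSMD14, the deubiquitinating subunit of the lid, was at 78.4 and 70.0 in ovary and at 119 and 132 in oocyte and was not called (0.75). Of 71 translation initiation and elongation factors, 33 were lower (46.5%, against 25.7%) and 11 higher (15.5%, against 31.0%), with a median of -0.97. EIF2B2, part of the exchange factor that recharges the initiator complex, was at 103 and 150.1 in ovary and at 2.94 and 1.99 in oocyte (-5.19, SE 0.27, adjusted p = 0.000492), whereas EIF4E3, a member of the cap-binding family, was at 3.86 and 3.84 in ovary and at 20.7 and 38.9 in oocyte (2.6, adjusted p = 0.00158). Of 41 endoplasmic reticulum folding and export genes, 21 were lower (51.2%, against 25.7%) and 6 higher (14.6%, against 31.0%), with a median of -1.06. This list was set up after values had been seen. HSPA5, the main chaperone of the endoplasmic reticulum, was at 888 and 865 in ovary and at 22.7 and 19.0 in oocyte (-5.33, SE 0.21, adjusted p = 0.000380), and KDELR2, a receptor that returns escaped chaperones, was at 161 and 227 in ovary and at 4.44 and 3.05 in oocyte (-5.36).

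A pair of genes often used as references were among the deep falls. actb1, cytoplasmic actin, was at 2787 and 4345 FPKM in ovary and at 164 and 104 in oocyte (-4.73, SE 0.40, adjusted p = 0.000711), and GAPDH, a glycolytic enzyme, was at 2194 and 2423 in ovary and at 180.1 and 131 in oocyte (-3.90, SE 0.31, adjusted p = 0.000693). Of 17 actin and tubulin genes tested, 9 were lower (52.9%, against 25.7% of all features) and 2 higher (11.8%, against 31.0%). The median of this list, which was set up after values had been seen, was -1.15. Its member tubb2b, a beta tubulin, was at 455 and 668 in ovary and at 35.7 and 24.5 in oocyte (-4.17). Another beta tubulin, tubb5, was called higher (1.57).

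**Figure D3:**
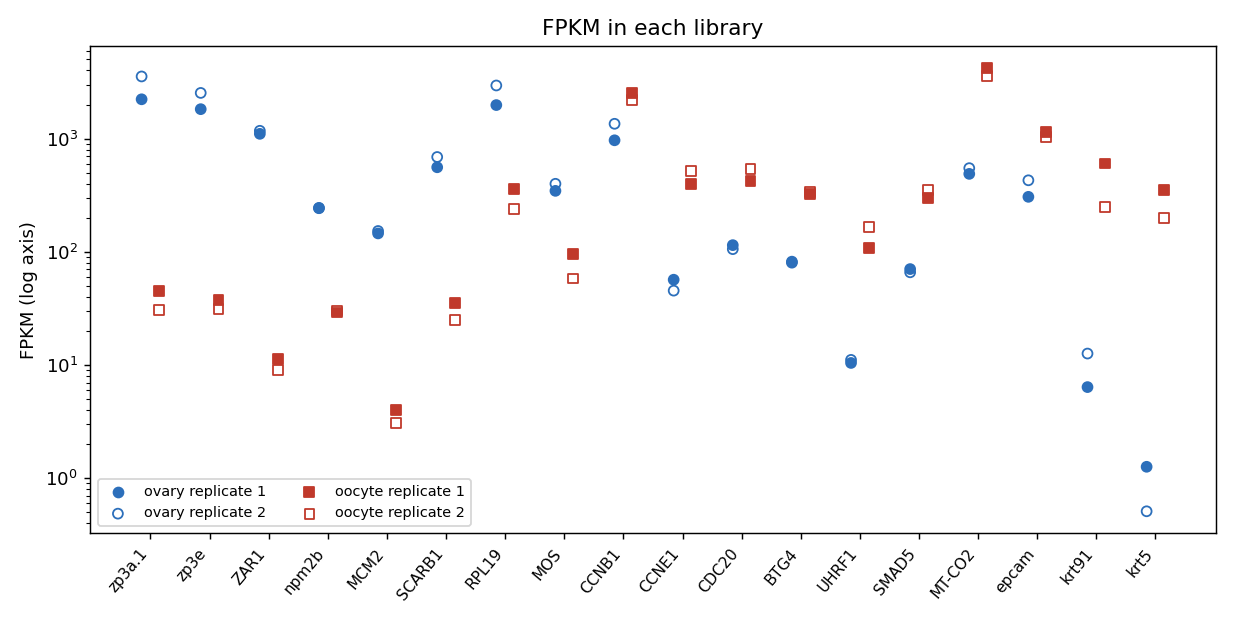
FPKM of 18 genes in each of the 4 libraries on a log axis; circles are ovary and squares oocyte, filled for replicate 1 and open for replicate 2. From zp3a.1 to MOS both oocyte values are under both ovary values, and from CCNB1 to krt5 both are above.

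What the egg held in excess included part of the cell cycle machinery. Meiotic maturation is driven by cyclin B with its kinase CDK1, and the egg then waits in the second metaphase under the MOS kinase pathway until fertilization. Of 29 maturation and cell cycle genes tested, 14 were higher in the oocyte (48.3%, against 31.0% of all features). Another 9 were lower (31.0%, against 25.7%) and 6 were not called. The median difference was 1.04, or 0.79 with median-of-ratios scaling, where 13 of the 29 differences were below 0. CCNE1, the cyclin of entry into S phase, was at 56.7 and 45.4 FPKM in ovary and at 399 and 515 in oocyte (3.14, SE 0.25, adjusted p = 0.000696), and its partner kinase CDK2 was at 12.1 and 9.60 in ovary and at 65.1 and 80.0 in oocyte (2.63, SE 0.22, adjusted p = 0.000706). Neither gene had overlapping values, as was so for 85.8% of all tested features. CDC20, an activator of the anaphase-promoting complex, was at 114 and 106 in ovary and at 419 and 536 in oocyte (2.1, adjusted p = 0.00132). The B cyclins were the most abundant members. CCNB2 was at 337 and 349.7 in ovary and at 1173 and 1316 in oocyte (1.85, adjusted p = 0.00287), while CCNB1, at 966 and 1352 in ovary and 2526 and 2194 in oocyte, did not pass (1.04, SE 0.40, adjusted p = 0.0607) although its values did not overlap.

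The kinases CDK1 and MOS were lower. CDK1 was at 48.5 and 47.0 FPKM in ovary and at 16.0 and 14.3 in oocyte (-1.60, SE 0.18, adjusted p = 0.00127). MOS was at 346 and 399 in ovary and at 94.8 and 58.1 in oocyte (-2.31, SE 0.30, adjusted p = 0.00176). In the chromosomal passenger complex, which corrects attachments to the spindle, the members parted: BIRC5, or survivin, was at 20.7 and 22.9 in ovary and at 123 and 110.3 in oocyte (2.37, adjusted p = 0.000696), and cdca8, or borealin, was at 150.3 and 174 in ovary and at 24.6 and 20 in oocyte (-2.81, adjusted p = 0.000693).

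The replication genes as a list were called at shares near those of all features. Cleavage divisions of the embryo copy DNA at high speed from maternal stores. Of 45 replication genes tested, 16 were higher (35.6%, against 31.0% of all features) and 12 lower (26.7%, against 25.7%), with a median of 0.42. Within the MCM helicase, MCM2 was at 145 and 153 FPKM in ovary and at 4.01 and 3.05 in oocyte (-5.06, SE 0.20, adjusted p = 0.000380). MCM4 and MCM5 were also lower, by -2.6 and -2.57. MCM6, at 92.9 and 72.7 in ovary and 174 and 221 in oocyte, was higher (1.25, adjusted p = 0.00701), a call lost with median-of-ratios scaling (1.0) and without ovary replicate 2 (1.07). MCM7 was not called, at 359 and 516 in ovary and 788 and 595 in oocyte (0.67, adjusted p = 0.125), and MCM3 was under 1 FPKM in all 4 libraries, against 13 and 14.8 in testis. Among the higher members, ORC6, a subunit of the origin recognition complex, was at 26.8 and 20 in ovary and at 179 and 204 in oocyte (2.99, SE 0.23, adjusted p = 0.000693). CDC45, which joins the active helicase, was at 32.8 and 26.0 in ovary and at 152 and 214 in oocyte (2.59), and the loading factors CDC6 and CDT1 were higher by 2.18 and 1.92. Of the same origin recognition complex, orc2 and ORC5 were lower (-2.15 and -2.13).

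Chromatin regulators were mostly higher. Of 28 genes of oocyte chromatin and histone supply tested, 15 were higher (53.6%, against 31.0% of all features). Another 3 were lower (10.7%, against 25.7%) and 10 were not called, with a median of 1.07. UHRF1, which directs maintenance methylation to newly copied DNA, was at 10.4 and 11.1 FPKM in ovary and at 108 and 165 in oocyte (3.52, SE 0.26, adjusted p = 0.000682). The methyltransferase it recruits, DNMT1, was at 90.4 and 69.2 in ovary and at 305 and 439.6 in oocyte (2.2, SE 0.29, adjusted p = 0.00174). Both genes had every oocyte value above every ovary value, but the values of the tissues did not overlap for 85.8% of all tested features. CHAF1B, a subunit of the factor that assembles nucleosomes behind the replication fork, was lower, at 32.9 and 34.2 in ovary and at 3.99 and 3.38 in oocyte (-2.89, adjusted p = 0.000639), as was npm2b. The oocyte histone h2af1al was above the upper limit and was not tested.

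Genes that store and degrade mRNA were also called at shares near the background. Of 50 tested, 19 were higher (38.0%, against 31.0%) and 13 lower (26.0%, against 25.7%), and the median was -0.02, or 0.10 with each library rescaled to a sum of 1000000. The higher members included enzymes of decay. XRN1, the exonuclease that degrades decapped mRNA, was at 5.09 and 4.14 FPKM in ovary and at 38.4 and 63.4 in oocyte (3.17, SE 0.29, adjusted p = 0.000821). PAN3, which guides a deadenylase to poly(A) tails, was at 19.2 and 21.2 in ovary and at 135 and 149.9 in oocyte (2.76, SE 0.19, adjusted p = 0.000647), and the CCR4-NOT deadenylase subunit CNOT8 was at 70.2 and 65.1 in ovary and at 294 and 350.1 in oocyte (2.23). BTG4, an adaptor that brings this deadenylase to maternal mRNA in mice, was at 81.8 and 80.2 in ovary and at 324 and 338 in oocyte (2.02, SE 0.21, adjusted p = 0.000949). Among the lower members were ZAR1, described above, and YTHDF3, a reader of methylated adenosine in mRNA, at 15.3 and 16.8 in ovary and at 1.82 and 2.36 in oocyte (-2.47, adjusted p = 0.000760). EIF4E1B, an oocyte form of the cap-binding protein, was at 65.7 and 81.6 in ovary and at 19.6 and 9.56 in oocyte (-2.33). CPEB1, which binds the cytoplasmic polyadenylation element, was at 467 and 437 in ovary and at 224 and 242 in oocyte; its difference of -0.95 was under the required size.

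Maternal transcription factors were more often higher than lower. Of 19 maternal transcription factors of genome activation tested, 11 were higher (57.9%, against 31.0% of all features) and 2 lower (10.5%, against 25.7%). The median was 1.56. An EP300 copy, a histone acetyltransferase, was at 2.65 and 2.67 FPKM in ovary and at 18.8 and 27.6 in oocyte (2.70, SE 0.25, adjusted p = 0.000840). pou5f3, a pluripotency factor that opens chromatin at genome activation, was at 57.2 and 84.8 in ovary and at 240.1 and 226 in oocyte (1.73, adjusted p = 0.00280), whereas its partners nanog (0.51) and sox19b (-0.13) were not called. nanog was at 329 and 363 in ovary and at 412 and 593 in oocyte, and sox19b was at 58.8 and 41.9 in ovary and at 44.7 and 45.7 in oocyte. foxr1, a forkhead factor, was lower, at 29.2 and 53.0 in ovary and at 9.5 and 9.32 in oocyte (-1.96, adjusted p = 0.00331).

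Among signals of the maternal axis and germ layers, 11 of 22 tested genes were higher and 2 lower. Of all tested features, 31.0% were higher and 25.7% lower. The median of the list was 0.90. Over all 34 genes, unfiltered, the median was -0.07, with 19 differences below 0 and 15 above. In the signalling chain of bone morphogenetic proteins, an ACVR2B copy, a receptor of this family, was at 0.979 and 1.06 FPKM in ovary and at 18.9 and 30.1 in oocyte (3.62, SE 0.28, adjusted p = 0.000693), and SMAD5, which carries the signal to the nucleus, was at 70.4 and 65.9 in ovary and at 298 and 354 in oocyte (2.24, adjusted p = 0.000883). ctnnb2, the maternal beta-catenin that sets the dorsal side in zebrafish, was at 136 and 162 in ovary and at 638 and 582 in oocyte (2.03, SE 0.25, adjusted p = 0.00145). The ligand ndr1, a Nodal signal, was lower, at 6.35 and 15.3 in ovary and at 1.2 and 0.598 in oocyte (-2.55, adjusted p = 0.00386). gdf3, its maternal partner ligand, was at 247 and 91.1 in ovary and at 122 and 396 in oocyte, and the values of the tissues overlapped. hwa, which activates maternal beta-catenin in zebrafish, was at 50.6 and 80.7 in ovary and at 49.2 and 23.3 in oocyte and was not called (-0.89, adjusted p = 0.107).

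Germ plasm genes went both ways. Of 21 germ plasm and piRNA genes tested, 4 were higher (19.0%, against 31.0% of all features) and 4 lower (19.0%, against 25.7%). The other 13 were not called, and the median was -0.25. DAZL, a translational activator of germ cells, was at 57.9 and 33.1 FPKM in ovary and at 159 and 239 in oocyte (2.13, SE 0.35, adjusted p = 0.00376). HOOK2, a linker to microtubules, was at 31.0 and 26.2 in ovary and at 135 and 139 in oocyte (2.22, adjusted p = 0.000762). DDX4, the germ cell helicase Vasa, was at 21.2 and 19.8 in ovary and at 32.3 and 40 in oocyte, a difference of 0.78 that was under the required size. The piRNA factor tdrd5, a Tudor protein, was lower, at 24.5 and 18.3 in ovary and at 3.60 and 3.61 in oocyte (-2.27, adjusted p = 0.000920). buc, which organises the Balbiani body of young oocytes, was at 309 and 182 in ovary and at 112 and 87.3 in oocyte (-1.26, adjusted p = 0.0180); this call was lost without ovary replicate 1 (-0.87), without oocyte replicate 1 (-1.43) and without oocyte replicate 2 (-1.08).

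Genes of meiotic prophase were largely at low levels in both tissues, and 17 of 33 did not reach the minimum. Of the 16 tested, 2 were higher (12.5%, against 31.0% of all features) and 3 lower (18.8%, against 25.7%). The median was -0.37, or 0.33 over the fewer genes reaching 5 FPKM. stag3, a meiotic cohesin subunit, was at 12.7 and 33.0 FPKM in ovary and at 1.57 and 0.835 in oocyte (-3.31, SE 0.47, adjusted p = 0.00227). The recombination factors PSMC3IP, at 17.2 and 15.4 in ovary and 2.37 and 2.70 in oocyte, and MND1, at 5.60 and 5.22 in ovary and 0.766 and 0.818 in oocyte, act as a pair and were both lower (-2.29 and -1.84). SYCP3, a protein of the synaptonemal complex that marks early prophase, was under 1 FPKM in all 4 libraries, against 68.4 and 63.8 in testis.

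Genes of fertilization and egg activation were more often higher than lower in the egg. Of 30 tested, 17 were higher (56.7%, against 31.0% of all features), 1 lower (3.33%, against 25.7%) and 12 not called. The median was 1.2. A calcium wave starts egg activation, and several of these genes release or sense calcium. ITPR2, a calcium channel of the endoplasmic reticulum, was at 2.58 and 1.98 FPKM in ovary and at 17.9 and 32.6 in oocyte (2.95, SE 0.33, adjusted p = 0.00116). PLCG1, a phospholipase that makes the messenger opening this channel, was at 28.3 and 27.1 in ovary and at 115 and 184 in oocyte (2.35, adjusted p = 0.00132). fmn2b, a formin that nucleates actin in oocytes, was at 11.9 and 12.4 in ovary and at 93.5 and 113 in oocyte (2.98, SE 0.20, adjusted p = 0.000607), and its partner SPIRE1 was at 3.94 and 4.11 in ovary and at 28.3 and 39.1 in oocyte (2.77). bouncer, the egg membrane protein that sperm must meet for entry in zebrafish, was at 491 and 676 in ovary and at 1234 and 652 in oocyte. These values overlapped, and the gene was not called (0.64, SE 0.43, adjusted p = 0.227); it was close to 1 FPKM in testis, at 1.52 and 1.06.

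Kinesin motors, septins, calpains and splicing factors were mostly higher in the egg. These lists were set up after values had been seen, so their shares beside that of all features are description only. Of 23 kinesins tested, 17 were higher (73.9%, against 31.0% of all features) and none lower (median 1.61). kif11, the motor that separates spindle poles, was at 42.8 and 36.8 FPKM in ovary and at 199 and 274 in oocyte (2.53, SE 0.25, adjusted p = 0.000874), and KIF23, which acts in cytokinesis, was at 93.8 and 79.6 in ovary and at 347 and 403 in oocyte (2.1). Of 11 septins, filament proteins of the cell cortex, 8 were higher (72.7%, against 31.0%) and 1 lower (9.09%, against 25.7%), with a median of 1.99. SEPTIN2 was at 9.73 and 9.29 in ovary and at 59.3 and 81.6 in oocyte (2.75, adjusted p = 0.000700). Of 9 calpains, calcium-dependent proteases, 7 were higher (77.8%, against 31.0%) and none lower (median 1.41). Genes that pass the minimum only through the oocyte must differ in this direction. With no filter the medians were 0.62 over 44 kinesins, 1.25 over 15 septins and 0.56 over 17 calpains. Of 25 splicing factors of the SR and SF3 groups, 16 were higher (64.0%, against 31.0%) and 2 lower (8.0%, against 25.7%). Their median was 1.17, and with median-of-ratios scaling 10 were higher. SRSF4 was at 32.9 and 31.7 in ovary and at 191 and 198 in oocyte (2.55, adjusted p = 0.000689).

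**Figure D4:**
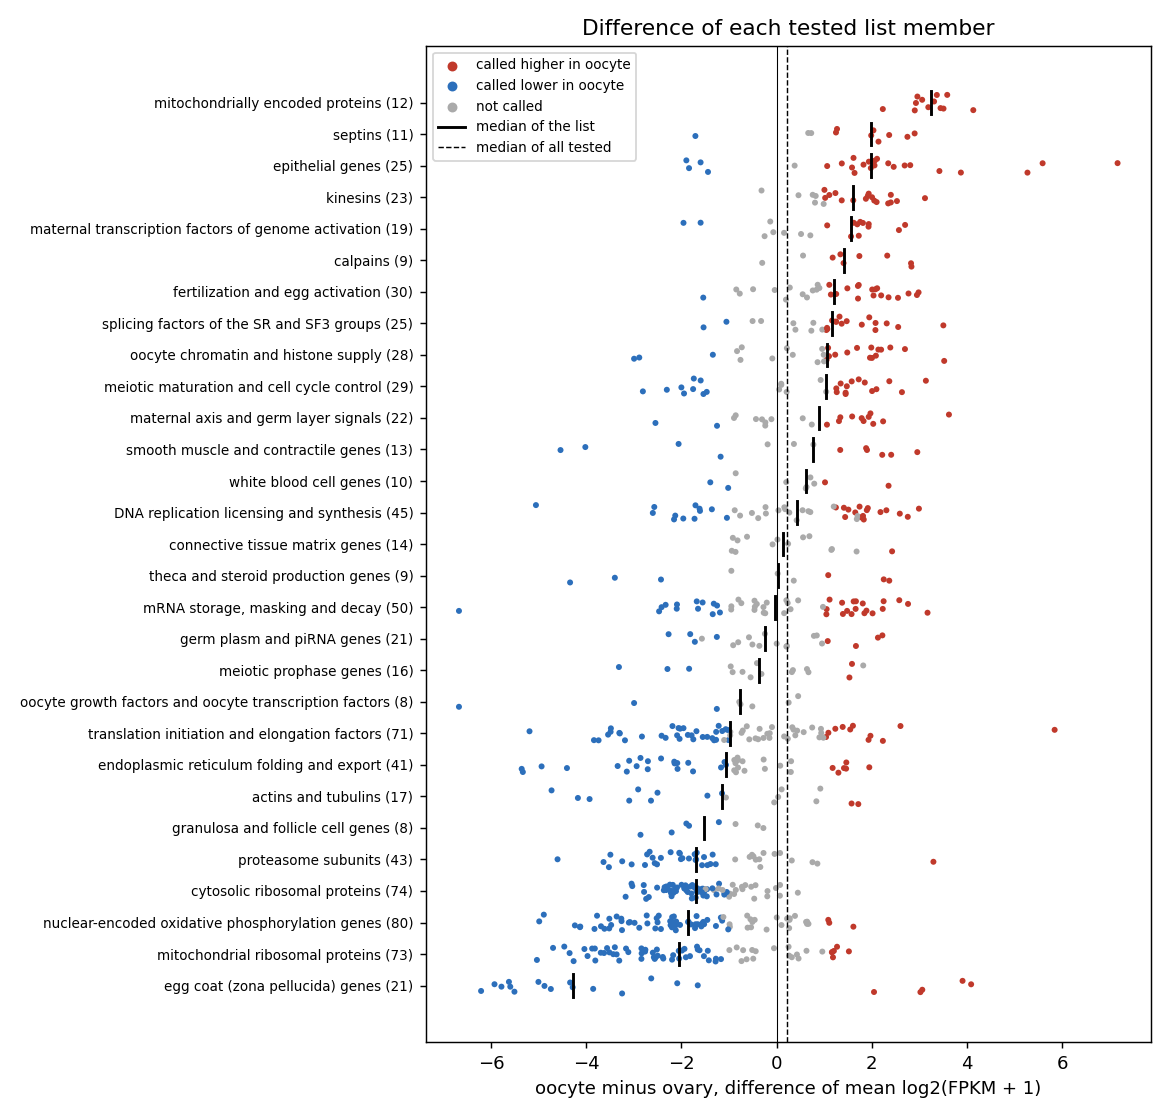
Difference in mean log2(FPKM + 1), oocyte minus ovary, of each tested member of 29 gene lists with at least 8 tested members (number in parentheses); points are coloured by call, short black bars are list medians, and the dashed line is the median of 0.21 over all tested features. The list medians run from -4.28 for egg coat genes to 3.25 for mitochondrially encoded genes.

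Epithelial genes included the largest rise from a level above 0 in the ovary. Of 25 tested, 20 were higher (80.0%, against 31.0% of all features), 4 lower (16.0%, against 25.7%) and 1 not called. The median was 1.98, and the list summed to 522 and 648 FPKM in ovary and to 3484 and 2742 in oocyte. Genes that pass the minimum only through the oocyte must be higher in it. With no filter the median over all 37 was 1.37. krt5, a keratin of stratified epithelium, was at 1.26 and 0.510 in ovary and at 352 and 198 in oocyte (7.16, SE 0.36, adjusted p = 0.000459). krt91, another keratin, was at 6.38 and 12.6 in ovary and at 602 and 247 in oocyte (5.27), and icn2, an S100-like calcium-binding protein, was at 0.138 and 0.291 in ovary and at 83.3 and 39.3 in oocyte (5.59). For krt91 and icn2, oocyte replicate 1 held more than 2-fold the level of replicate 2. No such order was seen for cdh1. This E-cadherin of epithelia and early embryos was at 10.1 and 9.72 in ovary and at 91.3 and 146 in oocyte (3.42, SE 0.27, adjusted p = 0.000693). TP63, which defines basal epidermis, was at 2.51 and 2.78 in ovary and at 3.82 and 3.65 in oocyte and was not called (0.38). The 4 lower members were keratins, krt8, krt18a.1, krt94 and krt18b; krt8, of simple epithelium, was at 27.6 and 17.7 in ovary and at 5.13 and 5.80 in oocyte (-1.84). Of the 37 epithelial genes listed, 12 did not reach the minimum. The part of epithelial cells in the oocyte libraries was not tested.

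Other large rises were chosen by size from the features above 0 in both ovary libraries, after values had been seen. fabp1b.2, a fatty acid-binding protein, was at 0.147 and 0.232 FPKM in ovary and at 167 and 144 in oocyte (7.04, SE 0.20, adjusted p = 0.000337). ptgdsb.1, a lipocalin of the prostaglandin D synthase family, was at 0.260 and 0.422 in ovary and at 40.4 and 49.8 in oocyte (5.10, SE 0.22, adjusted p = 0.000380). Both genes were under 1 FPKM in both ovary libraries and agreed within each tissue. Regulators followed: MAP3K1, a kinase of stress signalling, was at 2.67 and 2.57 in ovary and at 60.1 and 77.3 in oocyte (4.26), and AGO2, an Argonaute protein of small-RNA pathways, was at 0.553 and 0.407 in ovary and at 11.8 and 30.3 in oocyte (3.76). pcnt, a scaffold of the centrosome, was at 1.49 and 1.69 in ovary and at 34 and 58.9 in oocyte (4.14, SE 0.31, adjusted p = 0.000693).

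Some rises rested on values listed at 0. Of all tested features, 43 were listed at 0 in both ovary libraries and at 1 FPKM or more in both oocyte libraries, which fixes a difference of at least 1 on this scale, and 16 features showed the opposite. All 43 were called higher. They include 8 of the 15 largest rises of named genes, such as cntrob, a centriole-associated gene, at 396 and 260.3 FPKM in the oocyte libraries, and pfn1, the actin-binding profilin, at 127 and 199. Of the 43, 19 were at 1 FPKM or more in both testis libraries. A listed 0 need not mean absence: RPLP0, a ribosomal protein gene, was listed at 0 in testis replicate 1 and at 5051 in replicate 2. With all features at 0 in both libraries of a tissue left out, 3613 features were higher and 3012 lower.

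Duplicated genes gave a view within gene families. Among 174 pairs of tested genes whose names differ only by a final a or b, 47 pairs were called the same way (27.0%), 40 of them higher and 7 lower. Another 12 pairs were called opposite ways (6.90%), 79 had 1 member called and 36 had none. Of all tested features, 31.0% were called higher and 25.7% lower. Only names in lower case that belong to a single feature were paired, so copies that share a capital name are not included. In the pair of nupr1 genes, stress-induced nuclear proteins, nupr1a was at 97.2 and 85.8 FPKM in ovary and at 333 and 369.8 in oocyte (1.93), and nupr1b was at 6.02 in both ovary libraries and at 0.157 and 0.131 in oocyte (-2.62). In the pair of adam10 genes, membrane proteases that shed surface proteins, adam10a was at 6.06 and 5.34 in ovary and at 23.05 and 37.2 in oocyte (2.18), while adam10b was at 9.25 and 10.4 in ovary and at 3.63 and 2.78 in oocyte (-1.37). The ubn2, pogz, ccdc106 and nudt4 pairs split in the same manner, with differences of 1.88 and -1.60, -1.37 and 1.86, 1.36 and -1.43, and -1.35 and 2.42; the last call, that of nudt4b, was lost with no filter.

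Testis, which the comparison did not use, differed between the classes. At least 1 FPKM in both testis libraries was reached by 65.6% of the features higher in the oocyte, 76.1% of those lower in the oocyte and 65.4% of those not called, against 68.2% of all tested features. The median testis level was 2.23 FPKM for the higher class, 3.78 for the lower class and 2.16 for those not called. The classes also differed in ovary, with median levels of 5.92, 15.1 and 5.36 FPKM in the same order. Whether general abundance accounts for the testis shares was not tested.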

How the data were processed

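The authors deposited a table of FPKM values with a column per library; per the submitters' processing notes, TopHat, Bowtie2 and Cuffnorm were used with the GRCz10 genome build. Per the labels' protocols, total RNA was extracted with TRIzol and libraries were made with the TruSeq RNA kit v2. That kit selects RNA by its poly(A) tail, so a value can also depend on tail length, which was not measured. Depth per library is not given in the sources used here, so no counting interval is given; the summed FPKM of the 4 libraries, without features above 10000, ran from 468108 to 604757. Gene names came from a table that matched 26412 of 32253 features, and symbols are spelled as in that table; where copies share a name, the text says "copy".

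Values were transformed to log2(FPKM + 1), which understates the change of low features. The 4 ovary and oocyte libraries were fitted with limma 3.58.1 in R 4.3.3 (a mean per tissue, eBayes with trend, two-sided, 2 residual degrees of freedom, Benjamini-Hochberg adjustment over 11791 features) after a check on simulated data. Differences are oocyte minus ovary. The genes named are, per list, the 3 largest called differences in the main direction, up to 2 the other way and the most abundant member, besides the 15 largest differences each way and 6 opposite paralog pairs; others in the text, such as CCNB2, CDK1, CDC20, CNOT8, BTG4, EIF4E1B, CPEB1, DNMT1, MCM5, MCM6, CDC6, CDT1, orc2, ORC5, pou5f3, sox19b, gdf3, hwa, PLCG1, DDX4, bmp15, figla, wt1b, FOXL2, zp3d.1, cdh1, TP63, RPS28 and PSMD14, and the genes given by level in the 20 most abundant, were chosen after their values were seen. The 15 largest differences were taken among called features with a gene name and values that did not overlap between the tissues, with further conditions on level and on listed zeros. The comparison, the lists and the members were chosen with earlier results of these data known. Alternatives covered the pseudocount, filter, scaling, variance trend, all 6 libraries, the replicate block, thresholds, features listed at 0 and leaving out each library. Planned descriptions by chromosome and promoter were not run, since no annotation of the files' build was used here. One gene that this rule names is not reported here.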

Additional observations from a re-analysis of the deposited data

How the results depend on the processing

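For the 2 totals and the 21 list counts, 430 of 437 alternatives stayed within 1.5 times the reported count, and no feature called in the reported fit was called the opposite way under any alternative. The exceptions were the 53 lower ribosomal protein genes, which were 25 with no filter, 34 with the replicate block, 26 at an adjusted p under 0.01 and 10 to 51 when each library was left out, and the 16 higher splicing factors, which were 10 with median-of-ratios scaling. The cause was not tested. Leaving out each library gave 3293 to 3801 features higher and 2757 to 2974 lower; where this leaves 1 library in a tissue, its spread is assumed equal to that of the other. Of 237 called genes among the 267 followed singly, 34 lost their call under at least 1 alternative.

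Median-of-ratios scaling lowered the median difference from 0.21 to 0.01 and the share of calls that were higher from 54.7% to 47.1%. Whether the replicate numbers pair the libraries is not in the labels. The replicate differences of ovary and oocyte correlated at -0.490 across features, which does not settle it. The replicate block gave 3630 higher and 3017 lower features. With the oocyte numbers crossed, the counts were 3725 and 3100. Depth is unknown, so whether low features were missed could not be assessed, and the number of libraries limits precision.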
